A study of Mus musculus with 2 samples.

Results

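The genes described here are 10 mesenchymal and contractile cytoskeleton genes, Cdh2, Vim, Fn1, Acta2, Tagln, Tpm1, Tpm2, Actn1, Vcl and Myh9, and the DNaseI-seq peaks found near them in NMuMG cells. A peak was assigned to a gene when it overlapped the gene body or lay within 50 kb of it, and each distinct interval was counted as 1 peak however many rows listed it. By that rule 40 of 17784 vehicle peaks and 55 of 22600 TGFβ peaks belonged to these genes, and no peak was counted for more than 1 of them. NMuMG cells are epithelial cells derived from the mammary gland of normal mice. Cells went without serum and insulin for 6 h and then received TGFβ1 at 5 ng/ml or its carrier for 2 h. The carrier is given as HCl with BSA in the treatment text and as Tris-HCl with BSA in the sample label. DNaseI-seq maps open chromatin by digesting nuclei briefly with DNaseI and sequencing the short fragments released. Each condition had 1 peak list, so no spread between replicates is known, no test between conditions was made, and every interval below (Wilson, 95%) covers counting error only.

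TGFβ drives epithelial cells such as these towards a mesenchymal state, the epithelial-mesenchymal transition, in which cell-cell junctions are lost and actin stress fibers are built. N-cadherin (Cdh2), vimentin (Vim) and fibronectin (Fn1) are classical markers of that state. Smooth muscle actin (Acta2) and transgelin (Tagln) belong to the contractile apparatus, tropomyosins (Tpm1, Tpm2) coat actin filaments, alpha-actinin (Actn1) crosslinks them, vinculin (Vcl) ties them to adhesions, and non-muscle myosin heavy chain IIA (Myh9) pulls on them. Many contractile genes are targets of serum response factor (SRF), which binds the CArG box, and TGFβ itself acts through SMAD proteins together with partners such as AP-1. Each peak was classed as shared when it had at least 1 bp in common with a peak of the other list, and otherwise as vehicle-only or TGFβ-only. A condition-only site was called in that list alone, and the other condition may still have had signal there. A promoter peak lay within 1000 bp of any annotated transcript start of any gene, and all other peaks are called distal.

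As a check of the cell line, peaks were looked up at the starts of marker genes. Of 6 epithelial genes, Cdh1, Krt8 and Krt18 had a start peak in both lists, and Epcam, Esrp1 and Cldn4 had none in either. None of 4 genes of other cell types (Ptprc, Pecam1, Cd68, Myod1) had one. The vehicle list was the shorter of the pair although the study's reporting summary gives that library more mapped reads, and the lists themselves hold no read depth.

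The chromatin around the 10 genes held more called sites after TGFβ, 1.38 times as many as with vehicle beside 1.27 times over the complete lists. Without Myh9 the ratio near the genes was 1.26. Of the 18 TGFβ-only sites 16 were distal, beside 6519 of 7611 over the complete list. Of the 40 vehicle peaks, 37 were shared and 3 were vehicle-only. Of the 55 TGFβ peaks, 37 were shared and 18 were TGFβ-only. Promoter peaks were almost equal in number, 24 with vehicle and 25 with TGFβ, whereas distal peaks numbered 16 with vehicle and 30 with TGFβ. Distal peaks were thus 40% (26.3 to 55.4) of the vehicle and 54.5% (41.5 to 67) of the TGFβ peaks near the genes, beside 42.4% and 52.1% of the complete lists. Most TGFβ-only peaks were in the lower part of the score range: of the 30 TGFβ peaks that reached the median score of 927 in their list, 3 were TGFβ-only (10%), beside 8.1% of all TGFβ peaks with such scores. Among the 30 distal TGFβ peaks 16 were TGFβ-only, and among the 25 promoter peaks 2 were.

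Within 50 kb, the TGFβ-only share near these genes was close to that of the whole list. TGFβ-only peaks made up 32.7% (21.8 to 45.9) of the TGFβ peaks near the 10 genes, beside 33.7% of the complete TGFβ list. For distal peaks the share was 53.3% (36.1 to 69.8) beside 55.3%, and for promoter peaks it was 8% (2.22 to 25) beside 10.1%. Vehicle-only peaks made up 7.5% (2.58 to 19.9) of the vehicle peaks near the genes and 17.6% of the complete vehicle list. In distal vehicle peaks the corresponding values were 12.5% (3.5 to 36), or 2 of 16, and 31.6%. The intervals near the genes hold the background share in each of these comparisons. Set against the windows of all coding genes, the share was 32.7% beside 31.3% at 50 kb. With windows of 20 kb it was 45.5% (29.8 to 62), or 15 of 33 peaks, beside 29.5%, an interval that lies just above the background, and in the gene bodies alone it was 43.5% (25.6 to 63.2), or 10 of 23, beside 25.9%. With windows of 100 kb it was 31.1% (21.7 to 42.3), or 23 of 74, beside 32.4%. The DNA covered by peaks near the 10 genes was 35.2 kb with vehicle and 39.8 kb with TGFβ, 1.13 times as much.

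The gain was uneven among the genes. Myh9 had 6 vehicle and 12 TGFβ peaks, Tpm1 8 and 12, Actn1 4 and 6, Tagln 3 and 5, Vim 3 and 4, and Cdh2 1 and 3. Fn1 had 2 in each list, Vcl 3 in each and Acta2 4 in each, every one of them shared. Tpm2 alone had fewer, with 6 vehicle and 4 TGFβ peaks, and 13.2% of all protein-coding genes had fewer TGFβ than vehicle peaks. Thus 6 of 10 genes had more TGFβ than vehicle peaks, beside 33.7% of the 22350 protein-coding genes, and the same 6 genes had a TGFβ-only peak, beside 40.5%. A vehicle-only peak lay near 2 of the 10, Tpm2 and Actn1, beside 25.9%. The windows of the 10 genes were also longer than usual, with a median of 147.2 kb against 115.4 kb over all protein-coding genes. The median protein-coding gene had 2 vehicle and 2 TGFβ peaks, while the 10 genes had 2 to 12 TGFβ peaks. The part of either difference in these counts was not tested. Myh9, Tpm1 and Actn1 together held 14 of the 18 TGFβ-only peaks.

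**Figure D1:**
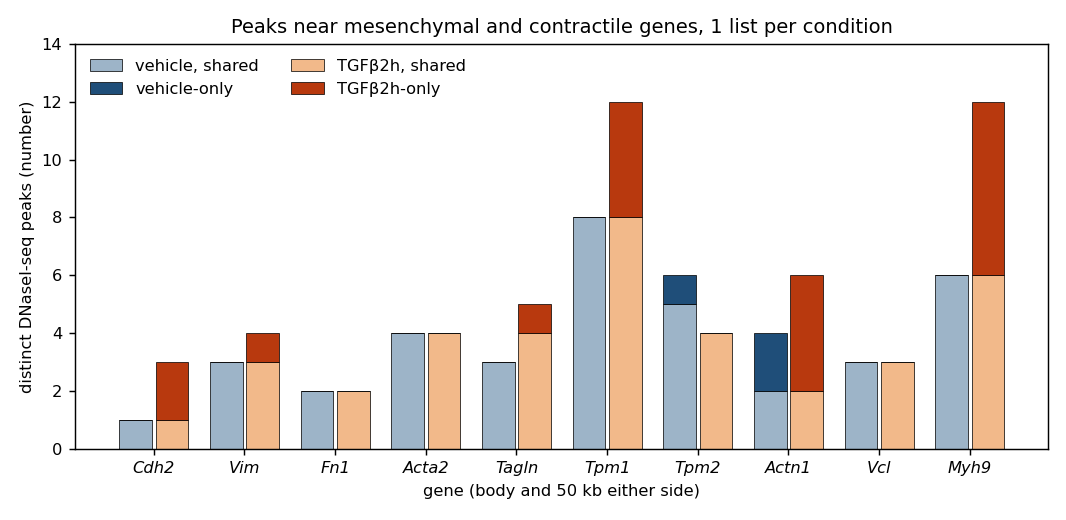
Number of distinct DNaseI-seq peaks (vertical axis) in the body or within 50 kb of each of the 10 genes (horizontal axis), with a vehicle bar and a TGFβ 2 h bar per gene divided into shared and condition-only peaks; there is 1 list per condition and so no error bar. Myh9 and Tpm1 reach 12 TGFβ peaks, and Tpm2 has more vehicle than TGFβ peaks.

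The TGFβ-only peaks were narrower and lower in score than the shared ones, as they were over the complete list. The score is the authors' whole-number peak score, which runs from 540 to a ceiling of 1000 and ranks peaks only within their own list. The 18 TGFβ-only peaks were 283 to 699 bp wide with a median of 587 bp, and the 37 shared TGFβ peaks were 104 to 1422 bp wide with a median of 845 bp. Scores of the TGFβ-only peaks ran from 542 to 1000 with a median of 714, and 2 of 18 (11.1%) stood at the ceiling, beside 7.77% of all TGFβ-only peaks in the list. Of the 37 shared TGFβ peaks, 23 (62.2%) stood at the ceiling. Since 16 of the 18 TGFβ-only peaks were distal, the 14 shared distal peaks are the closer comparison. Their median width was 737.5 bp, with a range of 329 to 1349 bp, and 8 of them (57.1%) stood at the ceiling. In the complete list the median width was 436 bp for TGFβ-only, 723 bp for shared and 597 bp for shared distal TGFβ peaks, and 62.8% of the shared and 40.4% of the shared distal ones stood at the ceiling. The TGFβ-only peaks lay 4.1 to 68.4 kb from the start of their gene, with a median of 29.3 kb. Of the 18, 10 were inside the gene body and 8 outside it, and for 13 the nearest coding start was that of the member gene.

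Among the mesenchymal markers, the sites that differed were few. At Cdh2, which mediates adhesion between mesenchymal cells, the vehicle list had only the peak at the start. After TGFβ there were also intronic peaks at chr18:16899034-16899712, with a score of 567, and at chr18:16903294-16903992, with a score of 542, 68.4 and 64.1 kb into the gene. Both scores were near the floor of the list. At Vim, the intermediate filament of mesenchymal cells, all peaks were at transcript starts. Its 1 TGFβ-only peak, chr2:13480302-13480707 with a score of 731, lay 15.1 kb upstream of Vim, at the start of the predicted coding gene Gm9875 beside a shared peak of that same start. At Fn1, which encodes an extracellular matrix glycoprotein, the lists had the same pair of sites, at its own start and at the start of Atic 96 kb away. The annotated start of Apol7d also lay in the Fn1 start peak, so that peak could not be assigned to 1 of these genes.

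Acta2 and Tagln stood apart from the other 8 genes in having no peak at any annotated start of their own and none in the gene body in either list. A start without a peak was common, since 11588 of 22350 coding genes had no start peak in either list. Measured from its start, the peak nearest to Acta2 was at the Fas start, 35.2 kb upstream, and the other sites were at the Stambpl1 start and in the Stambpl1 introns, 42.1 to 62.9 kb downstream of the Acta2 start. For Tagln the nearest peak was at the Sidt2 start, 18.8 kb upstream. There the single vehicle peak of 1163 bp overlapped TGFβ peaks of 966 and 104 bp, which is why Tagln counted 3 shared vehicle and 4 shared TGFβ peaks. Its TGFβ-only peak, chr9:45771639-45772237 with a score of 852, was intergenic and nearer to the Sidt2 start than to Tagln. Every peak in these windows thus belonged to the start or the surroundings of a neighbouring gene or to intergenic DNA.

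The 300 bases before the start of these genes are shown because this is sequence in which no peak was called, beside Vcl, whose start was open in both lists. Among the genes with a start peak, Vcl alone had a CArG match in this window. The sequences run 5′ to 3′ on the strand of the gene and end at the base before the annotated start (mm9). Capitals mark matches to the CArG box (CC, 6 letters of A or T, GG) and to the TEAD motif GGAATG, searched on both strands.
Tagln, chr9:45744142-45744441, minus strand: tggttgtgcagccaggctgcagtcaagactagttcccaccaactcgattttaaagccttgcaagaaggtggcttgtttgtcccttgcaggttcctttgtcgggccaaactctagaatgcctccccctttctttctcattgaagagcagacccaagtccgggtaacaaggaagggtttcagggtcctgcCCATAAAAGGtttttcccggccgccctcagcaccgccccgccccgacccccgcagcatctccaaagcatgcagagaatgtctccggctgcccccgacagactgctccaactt
Acta2, chr19:34329827-34330126, minus strand: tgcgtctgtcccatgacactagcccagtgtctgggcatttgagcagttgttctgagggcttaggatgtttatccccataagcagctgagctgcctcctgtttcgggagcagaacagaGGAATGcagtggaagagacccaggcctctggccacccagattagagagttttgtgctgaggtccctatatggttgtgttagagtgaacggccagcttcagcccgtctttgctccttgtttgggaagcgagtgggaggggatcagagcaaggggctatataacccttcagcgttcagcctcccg
Vcl, chr14:21748355-21748654, plus strand: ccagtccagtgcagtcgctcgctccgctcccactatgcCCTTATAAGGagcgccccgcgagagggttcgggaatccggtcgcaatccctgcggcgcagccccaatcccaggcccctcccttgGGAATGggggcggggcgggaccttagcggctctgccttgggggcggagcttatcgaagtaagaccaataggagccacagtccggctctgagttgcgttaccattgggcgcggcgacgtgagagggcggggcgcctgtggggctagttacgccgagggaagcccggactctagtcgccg
Only exact CArG strings were counted, so a box with a G or C among its 6 middle letters was missed. The Acta2 sequence above holds near matches of that kind. The CArG match of Tagln began 112 bp before the start and that of Vcl 262 bp before it. Acta2 and the other 7 genes had no exact match in this window. Such a match occurred in 1.62% of the 22350 protein-coding genes. The TEAD match of Acta2 began 183 bp and that of Vcl 178 bp before the start, a match that 13.8% of coding genes had. Acta2 had 7 CpG and a GC content of 54.3%, Tagln 11 CpG and 56%, and Vcl 29 CpG and 66.7%. Vcl was at the high end of the genes with a start peak, which ran from 12 CpG and 58.3% at Vim to 41 CpG and 80% at Cdh2, so the lowest of them was close to Tagln. Over all coding genes the median was 18 CpG for starts with a TGFβ peak and 4 for starts with no peak in either list. These letters describe the windows only, and binding was not measured.

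The other 8 genes had a peak at a start of their own in both lists, beside 45.7% of coding genes in the vehicle list and 46.3% in the TGFβ list. At starts of protein-coding transcripts the number was 7 of 10 in both lists, beside 45.2% and 45.8%. The gene that dropped out was Tpm2, whose start peak lay 3.6 kb inside the gene at the start of a noncoding transcript. For none of the 10 genes did the lists differ in whether such a start peak was called.

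Most of these start peaks were narrower after TGFβ. The Cdh2 start peak was 1734 bp wide with vehicle and 1030 bp with TGFβ. The Actn1 peak was 1874 bp with vehicle and 1318 bp with TGFβ, and the Vim peak 1782 and 1264 bp. At Myh9 the widths were 1452 and 1148 bp, and at Vcl 1071 and 828 bp. The peaks of Actn1, Vim, Myh9 and Vcl stood at the score ceiling in both lists, and that of Cdh2 in neither. Tpm1 had a peak at its 5′ start, 821 and 716 bp wide, and another at an internal start 5.6 kb into the gene, from which shorter isoforms are read, 737 and 681 bp wide. The Tpm2 peak was 512 and 206 bp wide. Fn1 was the exception at 900 and 1076 bp. In all, 8 of 9 start peaks were narrower in the TGFβ list (88.9%, 56.5 to 98), with a median TGFβ-to-vehicle width ratio of 0.773. Over all promoter pairs of the lists 75.9% were narrower, with a median ratio of 0.893. Tpm1 entered with both of its starts, and Tpm2 with its internal noncoding start.

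Narrower peaks were a feature of the whole TGFβ list. Among all 34 shared peaks near the 10 genes that were matched by a lone peak in the other list, 24 were narrower with TGFβ (70.6%, 53.8 to 83.2), beside 70.9% of all 13978 such pairs. For promoter pairs the values were 15 of 20 (75%) and 75.9%, and for distal pairs 9 of 14 (64.3%) and 61.9%. The strongest widening near these genes was at a distal Myh9 pair 40.7 kb upstream, 577 bp with vehicle and 1349 bp with TGFβ, a ratio of 2.34, and the strongest narrowing was that of the Tpm2 start peak, a ratio of 0.402. Scores were not compared between the lists, since a score of 1000 had 46.8% of the vehicle list but 55.7% of the TGFβ list below it.

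**Figure D2:**
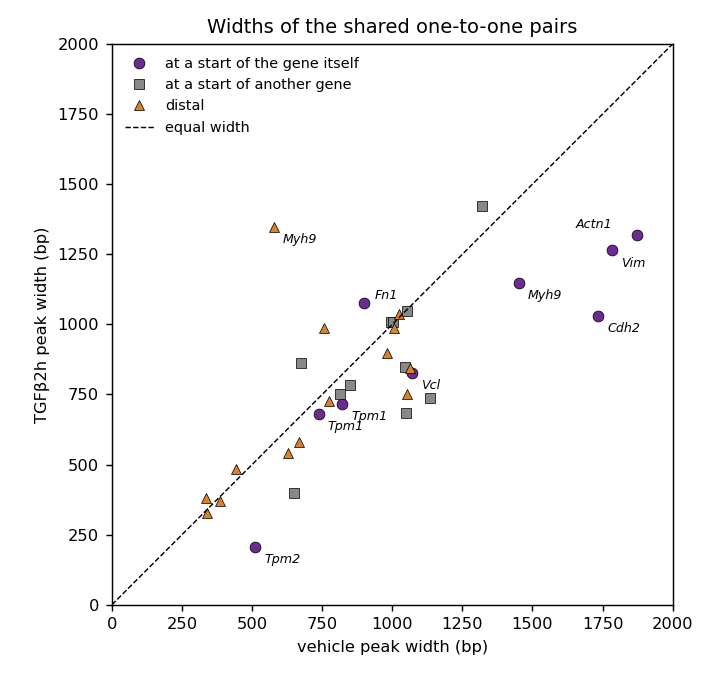
Width of the TGFβ 2 h peak (vertical axis, bp) against the overlapping vehicle peak (horizontal axis, bp) for the 34 pairs in which each peak was matched by a lone peak in the other list; circles are starts of the gene itself, squares starts of other genes, triangles distal peaks, and the dashed line marks equal width. Of the 9 circles 8 lie under the line, and the Myh9 triangle at 577 and 1349 bp lies farthest above it.

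Tpm1 and Tpm2, both tropomyosins, differed in their surroundings. Around Tpm1 all 8 vehicle peaks were shared and 4 TGFβ-only peaks were added, all distal. They were chr9:66892883-66893267, in an intron 4.1 kb into the gene with a score of 558, chr9:66851118-66851802, 45.8 kb from the start with a score of 870, chr9:66838825-66839107, 58.2 kb from the start with a score of 651, and chr9:66925297-66925992, 28.4 kb upstream with a score of 682. The sites at 45.8 and 58.2 kb were nearer to the start of Lactb than to that of Tpm1. The site at 58.2 kb lay beside shared peaks at 59.2 and 60.4 kb. Around Tpm2 there was no distal peak in either list. The vehicle peaks were at the starts of Ccdc107, E130306D19Rik, Car9, Tln1 with Creb3, and at the internal Tpm2 start. A pair of vehicle peaks of 387 and 734 bp at Ccdc107 corresponded to 1 TGFβ peak of 1076 bp, and the peak at chr4:43521169-43521874, with a score of 678 in the Car9 gene, was vehicle-only. These account for the difference between 6 and 4 intervals, and covered length near Tpm2 was 4.12 kb with vehicle and 2.42 kb with TGFβ, a ratio of 0.586.

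Actn1 and Vcl, which crosslink actin and anchor it at adhesions, also differed from each other. Actn1 had distal peaks in both lists but none in common, 2 with vehicle and 3 with TGFβ. The vehicle-only peaks were chr12:81258665-81258920, beyond the 3′ end of the gene with a score of 690, and chr12:81317293-81317696, in an intron with a score of 661. The distal TGFβ-only peaks were all in introns, at chr12:81321275-81321876 with a score of 785, chr12:81330046-81330615 with a score of 656, and chr12:81330969-81331339 with a score of 697. The last pair lay side by side, 31 and 30.2 kb into the gene. A further TGFβ-only peak, chr12:81371895-81372301 with a score of 605, was at the start of the predicted gene Gm17373, 10.7 kb upstream of Actn1. At Vcl nothing was added or lost: its start, a site 37.3 kb upstream and a site in the Adk gene 146.7 kb beyond the start were called in both lists, each with a score of 1000.

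Myh9 had the most TGFβ-only peaks of the 10 genes, 6 of its 12 TGFβ peaks (50%, 25.4 to 74.6), beside 33.7% of the complete list. All 6 were among its 11 distal TGFβ peaks, a share close to the 55.3% of all distal TGFβ peaks. All 6 vehicle peaks of Myh9 were shared. Covered length in its window was 4.24 kb with vehicle and 8.1 kb with TGFβ, a ratio of 1.91. Inside the gene the TGFβ-only peaks were chr15:77666438-77667028, 5.9 kb from the start with a score of 940, chr15:77652388-77652970, 19.9 kb from the start with a score of 808, chr15:77630788-77631465, 41.5 kb from the start with a score of 1000, and chr15:77606097-77606464, 66.3 kb from the start with a score of 587. The first 3 were in introns and the last was centred on a coding exon. Upstream were chr15:77685697-77686094 with a score of 780 and chr15:77686870-77687474 with a score of 1000, 13.3 and 14.6 kb before the start. All 6 were nearer to a start of Myh9 than to that of any other coding gene, and both TGFβ-only peaks at the ceiling belonged to Myh9. At least 6 TGFβ-only peaks were found for 80 of the 22350 protein-coding genes (0.358%), and at least 4, the number at Tpm1 and Actn1, for 546 (2.44%). The Myh9 window was 181.6 kb long. Counts identical to those of Myh9 in every class were found for 1 other coding gene, to those of Tpm1 and of Actn1 for 3 each, to those of Tpm2 for 10 and to those of Fn1 for 1554.

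**Figure D3:**
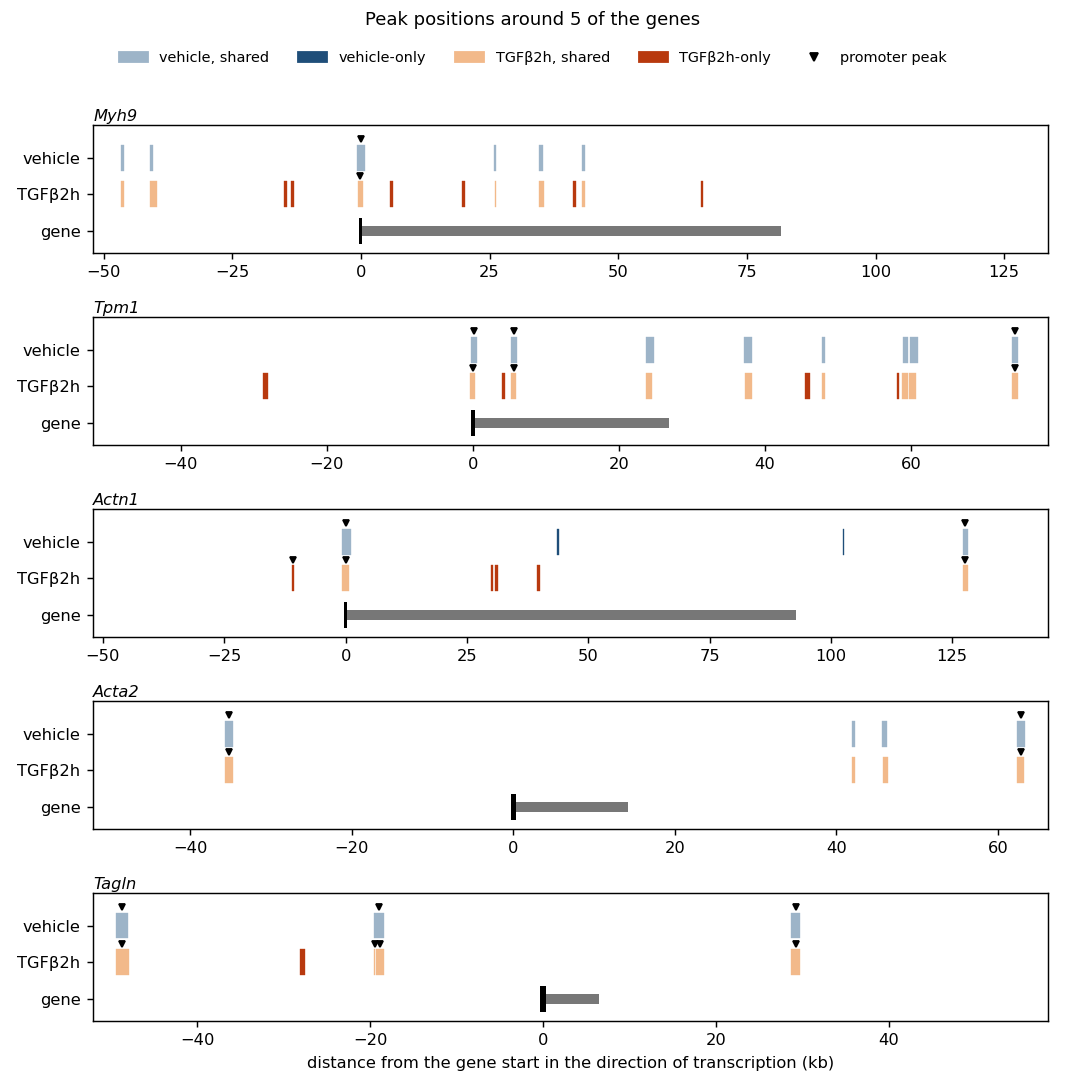
Peaks around Myh9, Tpm1, Actn1, Acta2 and Tagln by distance from the gene start in the direction of transcription (horizontal axis, kb), drawn at their width, with the vehicle list, the TGFβ 2 h list and the gene body on separate rows; triangles mark promoter peaks of any gene. Myh9 has 6 TGFβ-only peaks, Actn1 has no distal site in common between the lists, and Acta2 and Tagln have no peak at their start or in their body.

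Motif letters were searched on both strands in the 200 bp around the midpoint of each peak. The strings were TGANTCA for AP-1, CAGAC and GTCTAGAC for SMAD, GGAATG for TEAD, and the CArG box, and none of these strings contains another of them. Of the 16 distal TGFβ-only peaks near the 10 genes, 5 held the AP-1 string (31.2%, 14.2 to 55.6), beside 32.1% of all 6519 distal TGFβ-only peaks. The SMAD string CAGAC was in 10 of 16 (62.5%, 38.6 to 81.5) beside 54.5%, and TEAD in 1 of 16 (6.25%, 1.11 to 28.3) beside 14.9%. The CArG box was in 1 of 16 (6.25%, 1.11 to 28.3) beside 0.936%, and the longer SMAD string was in 0 of 16 (0 to 19.4) beside 0.675%. Apart from the CArG box, whose lower bound lies just above it on a single match, each of these shares has an interval that holds the background. When whole peaks were searched, the CArG box was again in 1 of 16, beside 2.1%, which the interval holds. The AP-1 share moved with the length searched, from 2 of 16 (12.5%) in 100 bp, beside 17.4%, to 8 of 16 (50%) in whole peaks, beside 51.8%. The AP-1 sites of Tpm1, Actn1 and Myh9 are shown because they lie in the TGFβ-only peaks described above, with 20 bases on either side, read on the plus strand of mm9 and with the match in capitals; the remaining one was at Cdh2.
Tpm1, 58.2 kb beyond the start, chr9:66838893-66838939: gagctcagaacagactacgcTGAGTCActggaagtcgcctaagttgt
Actn1 intron, chr12:81330227-81330273: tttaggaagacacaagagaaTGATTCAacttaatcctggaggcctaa
Myh9 intron, 41.5 kb from the start, chr15:77631176-77631222: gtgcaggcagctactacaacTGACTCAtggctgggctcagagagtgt
Myh9 intron, 5.9 kb from the start, chr15:77666717-77666763: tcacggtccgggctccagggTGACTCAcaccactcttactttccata
The 4 peaks had scores of 651, 656, 1000 and 940 in that order, and the match lay 7 to 80 bp from the midpoint of the peak.

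Over shared and TGFβ-only peaks together, the CArG box was in 3 of all 30 distal TGFβ peaks near them (10%, 3.46 to 25.6), beside 0.959% of the 11783 distal TGFβ peaks, and the comparison over all distal peaks was chosen after the values were seen. In whole peaks the numbers were again 3 of 30, beside 2.39%. The SMAD string CAGAC was in 28 of 30 whole peaks (93.3%, 78.7 to 98.2) beside 78.4%, and in 18 of 30 windows of 200 bp (60%, 42.3 to 75.4) beside 51.3%. Near the 6 epithelial genes it was in 20 of 21 whole distal peaks (95.2%). Peaks near the 10 genes were also wider, with a median of 737.5 bp for shared distal peaks beside 597 bp in the list. The part of width in the whole-peak share was not tested. AP-1 in 200 bp was in 9 of 30 (30%, 16.7 to 47.9) beside 29.9%. TEAD in 200 bp was in 6 of 30 (20%, 9.51 to 37.3) beside 15.4%. In the 14 shared distal peaks alone it was in 5 (35.7%, 16.3 to 61.2) beside 16%. The 3 CArG sites belong to Vcl and Myh9, and the Myh9 pair shares a gene, so they are not independent. They are shown on the plus strand of mm9 with the CArG box in capitals and 20 bases on either side.
Vcl, 37.3 kb upstream, shared, chr14:21711285-21711334: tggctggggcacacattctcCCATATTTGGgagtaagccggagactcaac
Myh9 intron, 43.2 kb from the start, shared, chr15:77629346-77629395: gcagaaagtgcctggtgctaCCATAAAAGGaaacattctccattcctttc
Myh9 intron, 41.5 kb from the start, TGFβ-only, chr15:77631082-77631131: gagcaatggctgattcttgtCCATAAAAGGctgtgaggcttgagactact
The peaks that hold them all scored 1000, and each match lay within 32 bp of the midpoint of its peak. The Myh9 sites had the same 10 letters, which were also those of the Tagln promoter match above. In the TGFβ-only Myh9 peak the CArG box and an AP-1 string lay in the same 200 bp. A match is a description of sequence, and binding of SRF was not measured here.

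**Figure D4:**
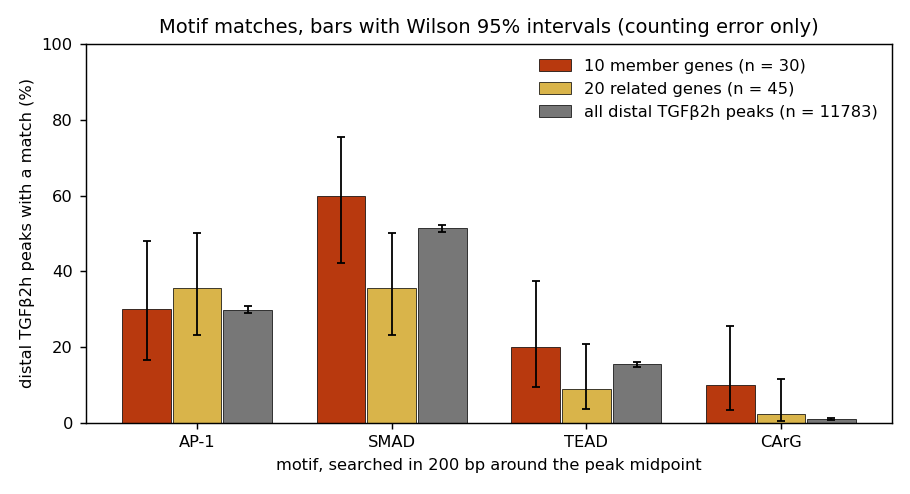
Share of distal TGFβ 2 h peaks (vertical axis, %) with each motif (horizontal axis; the SMAD bars count CAGAC) in the 200 bp around the midpoint, for the 10 genes, for 20 further cytoskeletal genes and for the complete list; bars carry Wilson 95% intervals for counting error. The CArG bars stand at 10, 2.22 and 0.959%, while the AP-1 bars lie close together.

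A second list of 20 genes of the actin cytoskeleton and mesenchyme was counted in the same way (Actb, Actg1, Actn4, Cald1, Cnn1, Cnn2, Cnn3, Flna, Myh10, Myl6, Myl9, Myl12b, Pxn, S100a4, Sparc, Srf, Tln1, Tpm3, Tpm4, Zyx). Together they had 88 vehicle and 110 TGFβ peaks, of which 9 were vehicle-only and 29 TGFβ-only. The TGFβ-only share was 26.4% (19 to 35.3), and 46.7% (32.9 to 60.9), or 21 of 45, among distal peaks, beside 33.7% and 55.3% of the complete list. More TGFβ than vehicle peaks were found at 11 of the 20 genes, beside 33.7% of all coding genes, equal numbers at 6 and fewer at 3, the last beside 13.2%. The Tln1 start peak lay in the Tpm2 window as well and was counted there too. Cald1, which encodes the actin-binding protein caldesmon, had the most TGFβ-only peaks, 5, and Cnn1, Cnn2, Myl6, Myl12b, Sparc, Srf and Tpm3 had none. A start peak was present at 15 genes with vehicle and at 16 with TGFβ, beside 45.7% and 46.3% of all coding genes, the added gene being Myh10, another non-muscle myosin heavy chain. Cnn1, Cnn2, Myl9 and Sparc had no start peak in either list. The CArG box was in 1 of their 45 distal TGFβ peaks (2.22%, 0.393 to 11.6) in the 200 bp around the midpoint, beside 0.959% of the complete list. When whole peaks were searched it was in 5 of 45 (11.1%, 4.84 to 23.5), beside 2.39%. The 10 genes, with 10% in whole peaks, did not differ from them in this.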

How the data were processed

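DNaseI-seq peak lists of NMuMG cells, 1 with vehicle and 1 with TGFβ1, were grouped by sample title. The authors aligned reads to mm9 and used their ATAC-seq pipeline with DNaseI options that are not stated. The processing notes name MACS2 2.1.2, and an irreproducible discovery rate of 0.05 is given for ATAC-seq. Duplicates are mentioned in the series design and merged reads in the paper's data listing, and lists per replicate were not used here. The deposited score is the authors' whole-number peak score with a ceiling of 1000. The deposited interval starts and ends (other values, in bp) were printed 1-based. Read depth is not in the lists.

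Rows that repeat an interval (always with 1 score) were counted as 1 peak, with every row counted as an alternative. What the rows stand for is not stated, and peaks with several summits would then count as 1. Genes and starts came from GENCODE mouse M1 on NCBIM37, whose chromosome names and lengths fitted the lists except for 2 peaks running past a chromosome end. Sequences were read from that genome with pysam 0.24.0. RefSeq promoter tables on another build were not used. Overlaps were counted in Python 3.11.15, tested first on simulated peaks. All 10 genes, every condition-only peak and each start peak were named by rule. Members and lists were chosen with earlier results of these data known. A pair of samples allowed no test.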

Additional observations from a re-analysis of the deposited data

How the results depend on the processing

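Of 153 alternative values, 126 stayed within the allowed range, 27 moved and 0 changed sign, and the cause was not tested. Nearly all are counts or shares, which cannot change sign. Some could not move, such as the 40 vehicle peaks under another overlap rule. The range was wide, since 57 vehicle peaks within 100 kb counted as inside it. This tally is therefore no measure of how firm the results are. The ratio of TGFβ to vehicle peaks, 1.38 as reported beside 1.27 for the complete lists, ran from 1.1 to 1.71. Leaving out 1 gene at a time gave 1.26 (without Myh9) to 1.5 (without Tpm2). With the TGFβ list reduced to the length of the vehicle list it was 1.18. Vehicle and TGFβ peaks numbered 167 and 183 when every deposited row was counted, 22 and 30 when peaks under the median score were dropped, 20 and 33 within 20 kb, 14 and 23 in the gene bodies, and 17 and 29 by nearest coding start. TGFβ-only peaks numbered 45 over rows and 10 in gene bodies. Vehicle-only peaks numbered 6 over rows, with 50% reciprocal overlap or within 100 kb, 5 with the TGFβ list reduced to the length of the vehicle list, 1 in gene bodies and 1 by nearest coding start. Leaving out 1 gene at a time gave 1 to 3 vehicle-only peaks (1 without Actn1) and 12 to 18 TGFβ-only peaks (12 without Myh9).

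The TGFβ-only share, 32.7% as reported, is given beside the same windows of all coding genes (31.3% at 50 kb). It was 45.5% beside 29.5% within 20 kb, 43.5% beside 25.9% in gene bodies and 31.1% beside 32.4% within 100 kb. The distal share, 53.3% beside 54.4%, was 72.2% (49.1 to 87.5) beside 54.3%, 71.4% (45.4 to 88.3) beside 58.4%, and 46.5% beside 54.6% for those windows. With every deposited row counted, the overall share was 24.6% (18.9 to 31.3) and the distal share 48.8%. By nearest coding start they were 44.8% (28.4 to 62.5) and 65%. No background share is given for these settings. Beside the complete list, the overall and distal shares were 38.2% and 56.7% with reciprocal overlap (39.3% and 60.4%), 27.3% and 46.7% with peaks up to 1000 bp apart counted as shared (31.6% and 52.9%), and 25.5% and 47.8% with the reduced TGFβ list (22.8% and 44.2%). The median score was 1000 for vehicle and 927 for TGFβ, so dropping lower peaks from both lists made shared sites count as TGFβ-only (40% and 64.3%, beside 25.2% and 60.7%). With the overlap looked up in the complete lists, an alternative added after seeing the data, 3 TGFβ-only and 0 vehicle-only peaks were left, and the shares were 10% and 21.4%, beside 8.1% and 23.7%. The AP-1 share was 12.5% in 100 bp around the midpoint, beside 17.4% of all distal TGFβ-only peaks. Taking all 30 distal TGFβ peaks, an alternative chosen after seeing the data, gave 30% for AP-1, and 10% in place of 6.25% for the CArG box. No paired analysis was possible because vehicle and TGFβ are represented by a lone list each. Few peaks per gene and scores at the ceiling limit every count. No count was scaled by depth, which the lists do not hold and which was larger for vehicle in the reporting summary. A site called in 1 list may have signal in the other.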
